A study of Danio rerio with 6 samples.

Results

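Genes of the zebrafish skin (10 in all) were followed in whole embryos mutant for rbm24a, namely 4 annexin A1 genes (anxa1a, anxa1b, anxa1c and anxa1d), the claudins cldnb, cldne and cldni, the adhesion genes epcam and cdh1, and the epidermal regulator tp63. They were chosen by name. Of the 10 symbols, 9 were found among the 31624 genes of the authors' table, and anxa1d was found by its gene identifier, ENSDARG00000098481, which the table lists as zgc:110283. The series measured RNA of whole AB-strain embryos at 33 hours post fertilization (hpf) by sequencing. The mutant embryos were rbm24a-/- (3 libraries), carrying an 8 bp deletion made with TALENs, which are designed site-specific nucleases. The labels disagree between the mutant libraries on the exon that carries the deletion, and no exon is given here. The other group was wild-type (WT) embryos of the same strain and stage (3 libraries). Rbm24a encodes an RNA-binding protein, and the series title names the accumulation of lens crystallins as its subject. The sources used here do not say whether a library pools several embryos or comes from a separate clutch. P-values therefore measure the spread between these samples, which may be technical.

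At this stage zebrafish skin consists of an outer periderm over a layer of basal cells, and tp63 encodes the p53-family transcription factor needed to form the basal layer. Claudins are membrane proteins that seal tight junctions between epithelial cells. E-cadherin, the product of cdh1, and the epithelial cell adhesion molecule Epcam hold such cells together, and annexins bind phospholipid membranes when calcium rises. The skin is a thin sheet around the embryo, and several of these genes are also used in other epithelia, so values from whole embryos mix skin with other tissues. In such samples fewer cells of a type and less RNA per cell cannot be told apart.

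Libraries held between 13242789 and 16043155 reads assigned to genes. Levels are given in FPKM, reads corrected for the gene's exonic length and for sequencing depth, and changes as log2 of mutant over WT. A gene was called when its p-value from edgeR's quasi-likelihood test, adjusted by Benjamini-Hochberg over all 16489 genes tested, was under 0.05. Mutant replicate 2 stood apart from the other mutant libraries on the second principal component (a score of -45.7, against 26.6 and 13.8), so members are also given without it where that matters. Markers of several tissues were present in both groups, with krt4 of the periderm at a mean of 4097 FPKM in mutants and 3782 FPKM in WT, the fast muscle gene mylpfa at 3609 FPKM in mutants and 3081 FPKM in WT, and the neuronal gene elavl3 at 14.7 FPKM in mutants and 17.6 FPKM in WT. Of 10 such markers 3 were called higher and 2 lower. The embryonic globin hbbe1.1 averaged 10.5 ± 1.06 FPKM in mutants and 209.7 ± 8.10 FPKM in WT (SD, n = 3 each), and the lens crystallin cryaa averaged 1.94 ± 0.431 FPKM in mutants and 7.58 ± 1.64 FPKM in WT (SD, n = 3 each). The lysozyme gene lyz (0.56), the endothelial gene cdh5 (0.61) and the muscle regulator myod1 (0.55) rose on the log2 scale. The part of such tissue differences in the values below was not tested.

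All 10 genes passed the expression filter. In the mutants epcam, anxa1a, cldnb and anxa1d were called higher, anxa1b and cldne were called lower, and anxa1c, cldni, cdh1 and tp63 were not called. Over all genes tested 14.2% were called, 6.71% higher and 7.48% lower. The members were picked with earlier results of these data known, so the excess over that background is a description of these genes and no test of the group. The same 6 genes had ranges that did not overlap between the groups, where 30.5% of all genes tested had such ranges. The median log2 change of the 10 genes was 0.22, and that of all genes tested was 0.00. The summed share of reads taken by the 10 genes was 0.186%, 0.204% and 0.174% in mutant libraries and 0.172%, 0.168% and 0.188% in WT libraries, and these ranges overlapped.

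**Figure D1:**
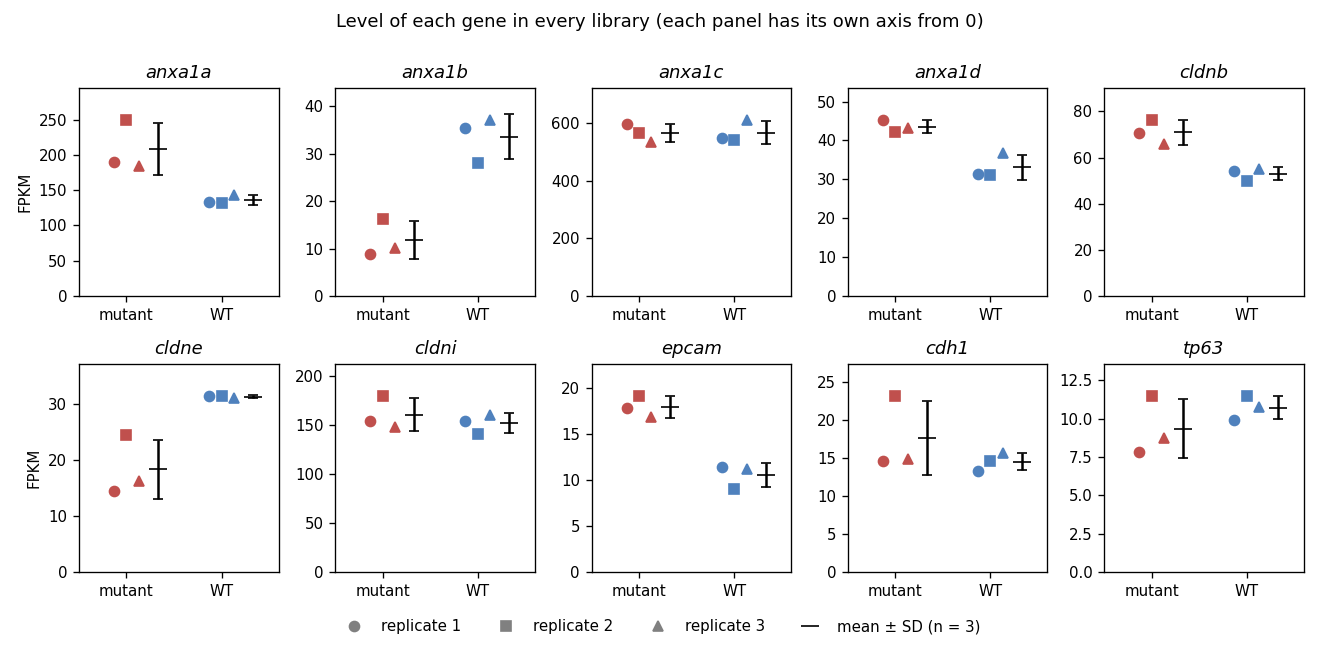
Level of each of the 10 genes in FPKM (vertical axes, each from 0) in the 3 mutant and the 3 WT libraries; symbols mark the replicate number and bars the mean ± SD (n = 3 each). The groups lie apart for anxa1a, anxa1b, anxa1d, cldnb, cldne and epcam, and mutant replicate 2 is the highest mutant library for all of them except anxa1c and anxa1d.

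The annexin A1 genes went in different directions. Anxa1b (ENSDARG00000100095) had 8.78, 16.3 and 10.21 FPKM in mutant replicates 1 to 3, against 35.5, 28.2 and 37.2 FPKM in WT replicates 1 to 3. Every mutant library was below every WT library, and mutant replicate 2 came closest to WT. Anxa1b averaged 11.8 ± 4.01 FPKM in mutants and 33.65 ± 4.83 FPKM in WT (SD, n = 3 each). Its log2 change was -1.49 (SE 0.17; adjusted p = 7.23e-05), and it was 2.80-fold higher in WT. It is the member with the largest change and the only one of the 10 in the authors' deposited table of changed genes, which gives a log2 change of -1.39. Every gene of the authors' deposited table changed at least 2-fold by its own estimate. Leaving out mutant replicate 2 gave a log2 change of -1.70.

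Anxa1a (ENSDARG00000026726) moved the other way. It had 191, 250.2 and 184 FPKM in the mutant libraries, against 133, 132 and 144 FPKM in the WT libraries. The lowest mutant library was above the highest WT library, and mutant replicate 2 was the highest of all 6. Without mutant replicate 2 the log2 change of anxa1a was 0.58, against 0.66 as reported. Anxa1a averaged 208 ± 36.5 FPKM in mutants and 136 ± 6.56 FPKM in WT (SD, n = 3 each), and its log2 change was 0.66 (SE 0.11; adjusted p = 0.00124).

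Anxa1d had 45.4, 42.1 and 43.2 FPKM in mutants, against 31.3, 31.1 and 36.8 FPKM in WT. The groups did not overlap, and WT replicate 3 came nearest to the mutants. Its log2 change of 0.45 (SE 0.12; adjusted p = 0.0254) is the weakest call among the members. It was lost without mutant replicate 1 (adjusted p = 0.0980), mutant replicate 3 (0.0790), WT replicate 1 (0.103) or WT replicate 2 (0.118). Its annotated exonic length in the table is 889 bases, while the other annexin A1 genes have 1642 to 1704 bases.

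Anxa1c (ENSDARG00000104359), the most abundant of the 10 genes, had 596, 565 and 535 FPKM in mutants, against 547, 542 and 613 FPKM in WT. The ranges overlapped, and the log2 change of 0.05 (SE 0.13; adjusted p = 0.851) did not pass. The make-up of the family differed between the groups, and for each of the 4 genes the shares did not overlap. Anxa1b made up 1.04%, 1.87% and 1.32% of the summed annexin A1 FPKM in mutant libraries, against 4.76%, 3.84% and 4.49% in WT libraries. The share of anxa1a was 22.7%, 28.7% and 23.8% in mutants, against 17.77%, 17.96% and 17.29% in WT. Anxa1c kept the largest share in every library, at 70.9%, 64.7% and 69.3% in mutants and 73.3%, 74.0% and 73.8% in WT. Anxa1d supplied 5.399%, 4.82% and 5.59% in mutants, against 4.19%, 4.24% and 4.44% in WT. Shares within a library add up to the whole, so a shift in one gene moves the others. The annexin A1 genes are paralogs, and the sources used here do not say how reads that fit several copies were counted, so a part of their single values may be exchanged between copies.

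**Figure D2:**
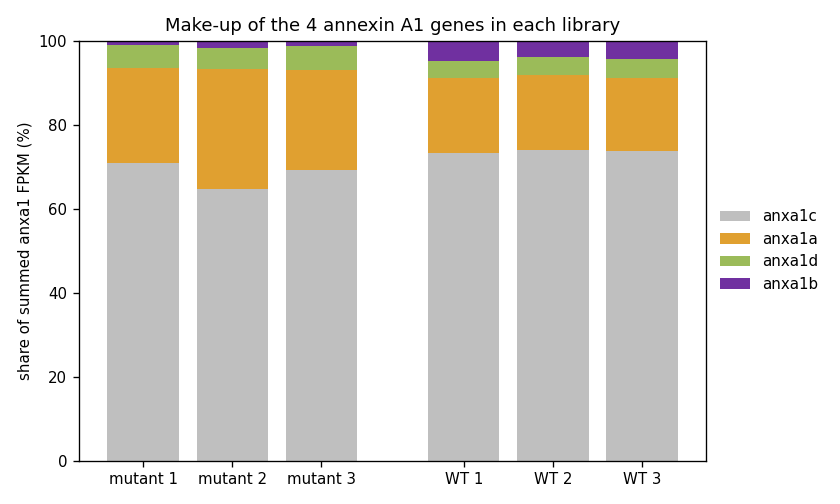
Share of the summed FPKM of the 4 annexin A1 genes (vertical axis, percent) that each gene supplied in each mutant and WT library (1 bar per library). Anxa1b shrinks to between 1.04% and 1.87% in mutants, against 3.84% to 4.76% in WT, and anxa1a widens.

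The claudins also split. Cldne (ENSDARG00000043128) had 14.4, 24.3 and 16.2 FPKM in mutants, against 31.4, 31.4 and 31.0 FPKM in WT. The WT libraries lay very close together and every mutant library was below them. Cldne averaged 18.3 ± 5.29 FPKM in mutants and 31.3 ± 0.255 FPKM in WT (SD, n = 3 each), and its log2 change was -0.74 (SE 0.13; adjusted p = 0.00182). The mutant library nearest to WT was again replicate 2, without which the log2 change was -0.91.

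Cldnb (ENSDARG00000009544), whose promoter is widely used in zebrafish to mark the skin and the migrating lateral line, had 70.4, 76.5 and 65.8 FPKM in mutants, against 54.3, 49.8 and 54.8 FPKM in WT. All mutant libraries were above all WT libraries. The means were 70.9 ± 5.34 FPKM in mutants and 53.0 ± 2.77 FPKM in WT (SD, n = 3 each), and the log2 change was 0.47 (SE 0.10; adjusted p = 0.00729). The call was lost without WT replicate 2 (adjusted p = 0.0508), the lowest of the WT libraries.

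Cldni (ENSDARG00000054616), the most abundant claudin of the 3, had 154, 180.0 and 148 FPKM in mutants, against 154, 140.4 and 161 FPKM in WT. The ranges overlapped and the log2 change of 0.13 (SE 0.11; adjusted p = 0.503) did not pass. In RefSeq's GRCz12tu annotation its end shares 19 bases with the neighbouring gene coro1a, an actin-binding protein gene of leukocytes, which was called higher (0.45, SE 0.13). The files use another build, and the strands of the genes were not compared. Reads at such an overlap cannot be assigned with certainty, and coro1a was looked at only after its value was seen.

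Both adhesion genes had higher means in the mutants, but only epcam passed. Epcam (ENSDARG00000040534) had 17.8, 19.1 and 16.9 FPKM in mutants, against 11.4, 9.03 and 11.1 FPKM in WT. The groups were far apart relative to their spread, at 17.9 ± 1.16 FPKM in mutants and 10.5 ± 1.29 FPKM in WT (SD, n = 3 each). The log2 change was 0.82 (SE 0.13; adjusted p = 0.00107), a 1.76-fold higher level in mutants. It is the largest rise among the 10 genes.

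Cdh1 (ENSDARG00000102750) had 14.7, 23.2 and 14.9 FPKM in mutants, against 13.3, 14.7 and 15.6 FPKM in WT. Mutant replicates 1 and 3 lay within the WT range, and mutant replicate 2 alone was above it. The log2 change of 0.31 (SE 0.13; adjusted p = 0.134) did not pass, and without mutant replicate 2 it was 0.15. In the RefSeq annotation, of a build other than that of the files, the span of cdh1 overlaps that of an uncharacterised gene. Exons and strands were not compared, so whether some cdh1 reads belong to that gene was not tested.

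The regulator tp63 (ENSDARG00000044356) had 7.84, 11.5 and 8.74 FPKM in mutants, against 9.95, 11.5 and 10.8 FPKM in WT. Mutant replicates 1 and 3 were below every WT library, and mutant replicate 2 was the highest of all by a small margin. The means were 9.36 ± 1.91 FPKM in mutants and 10.7 ± 0.761 FPKM in WT (SD, n = 3 each), and the log2 change was -0.16 (SE 0.11; adjusted p = 0.426). It was -0.25 without mutant replicate 2 and still did not pass (adjusted p = 0.0599).

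**Figure D3:**
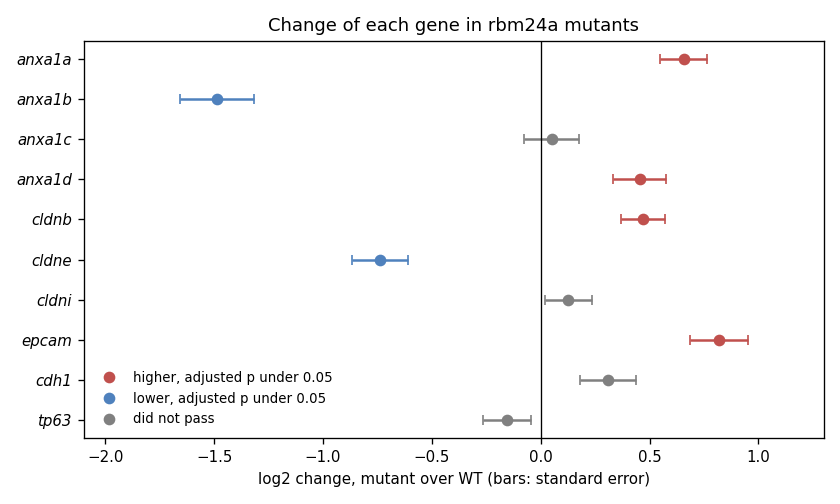
Log2 change of mutant over WT for each of the 10 genes (horizontal axis; points with standard errors), coloured by call. Epcam at 0.82 and anxa1b at -1.49 mark the ends, while anxa1c at 0.05 and cldni at 0.13, the most abundant annexin A1 and claudin of the set, lie near 0.

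Mutant replicate 2 differed from the other mutants at several members. On the log2 scale, with library sizes scaled, it was above the mean of the other mutant libraries by 0.57 for anxa1b, 0.46 for cldne, 0.44 for cdh1, 0.26 for tp63 and 0.21 for anxa1a. It was below them for anxa1c, at -0.21, and anxa1d, at -0.29. The median over all genes tested was 0.00 in the same comparison. That of a list of epidermal keratins, which also holds the non-keratin genes icn and icn2, was -0.05. WT replicate 2 also stood off from the other WT libraries, by -0.44 for anxa1b, -0.39 for epcam, -0.24 for cldni, -0.21 for cldnb and -0.20 for anxa1d. The median of the keratin list was -0.20. Both libraries were lower for short genes. The median difference over the 1654 genes in the shortest 10% by exonic length was -0.19 in mutant replicate 2 and -0.11 in WT replicate 2, and over the 1650 genes in the longest 10% it was 0.17 in mutant replicate 2 and 0.11 in WT replicate 2. Cdh1 and tp63 have the longest exonic lengths of the set, at 4613 and 3536 bases, and anxa1d the shortest. Some members went with length in mutant replicate 2 and others did not. On this scale the shortest, anxa1d, cldnb (-0.04) and epcam (-0.07), were below the other mutants, and the longest, cldne, tp63 and cdh1, were above them. In FPKM, however, mutant replicate 2 was the highest mutant library for cldnb and epcam. Anxa1b at 0.57, anxa1a at 0.21 and anxa1c at -0.21 differed although they have nearly the same length. In WT replicate 2, cldne (-0.06) and cdh1 (-0.05) were below the other WT libraries, and tp63 (0.07) was above them. The part of length in these values was not tested. All 6 calls held without mutant replicate 2, a setting in which 4828 of the 16489 genes tested were called, against 2341 as reported. Without WT replicate 2, 4 of the 10 genes were called, a setting in which 1577 of the 16489 genes tested were called.

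The levels can be set beside those of a list of 23 epidermal genes. It holds keratins, which form the intermediate filaments of skin cells, and icn and icn2, calcium-binding protein genes that are not keratins. The summed FPKM of the list was 8802, 9335 and 8926 in mutant libraries, against 9216, 8721 and 9651 in WT libraries. These ranges overlapped. Krt4 alone supplied 3930, 4348 and 4014 FPKM in mutants, against 3737, 3681 and 3929 FPKM in WT. Opposite changes of single genes can cancel in such a sum, so it does not measure the amount of skin RNA. Single genes of the list still differed: of 20 tested, 1 was called higher and 4 lower, with a median log2 change of -0.09. Krt17 fell, with a log2 change of -1.11 (SE 0.14), as did cyt1, with -0.65 (SE 0.13), and krt15 rose, with 0.56 (SE 0.14). The call on cyt1 was lost without WT replicate 3 (adjusted p = 0.0507), and that on krt15 without WT replicate 2 (0.0723) or WT replicate 3 (0.0513). Krt4, the most abundant one, did not pass (0.17, SE 0.15). Without mutant replicate 2 the genes of this list called were 4 higher and 6 lower, and without WT replicate 3 only 2 were called, both lower. Keratin genes have near-identical copies, so single values are uncertain.

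Of the claudin genes around cldne, cldnf and cldna were also called lower. Gene order and the gene overlaps above were taken from the RefSeq annotation (GRCz12tu), a build other than that of the files. There cldnj, cldne, cldnf and cldna follow each other without another protein-coding gene between them. Cldnf had 2.77, 4.48 and 3.29 FPKM in mutants, against 5.68, 7.26 and 5.62 FPKM in WT, and cldna had 1.53, 2.22 and 2.12 FPKM in mutants, against 4.55, 3.49 and 3.61 FPKM in WT. Neither gene's ranges overlapped between the groups. The log2 changes were -0.77 (SE 0.16; adjusted p = 0.00610) for cldnf and -0.94 (SE 0.22; adjusted p = 0.0104) for cldna, close to the -0.74 of cldne. The call on cldna was lost without WT replicate 1 (adjusted p = 0.0760). Cldnj had 9, 15 and 13 reads in mutants and 23, 18 and 27 reads in WT. Its log2 change of -0.91 (SE 0.36) did not pass (adjusted p = 0.117). Cldnj was named after its value was seen.

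The claudins around cldnb gave no such picture. Of its neighbours, cldnh had a log2 change of -0.15 (SE 0.13), cldnc of 0.21 (SE 0.19) and zgc:112437 of -0.79 (SE 0.34), and none was called. The annexin A1 genes anxa1d, anxa1c and anxa1b are also neighbours in that order, and anxa1a is not next to them. These adjacent genes had log2 changes of 0.45, 0.05 and -1.49, and the gene next to anxa1b, pmpca at 0.08 (SE 0.10), was not called. The gene on the far side of anxa1d was not matched to the table, and ptgs1, which lies beyond it, had 0.37 (SE 0.16) and was not called. Within 3 protein-coding genes on each side of the members, 28 genes that are not members were tested, of which 1 was called higher and 3 lower, a share close to the 14.2% of all genes tested. The choice to look at neighbours was made after the values of these genes were seen.

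**Figure D4:**
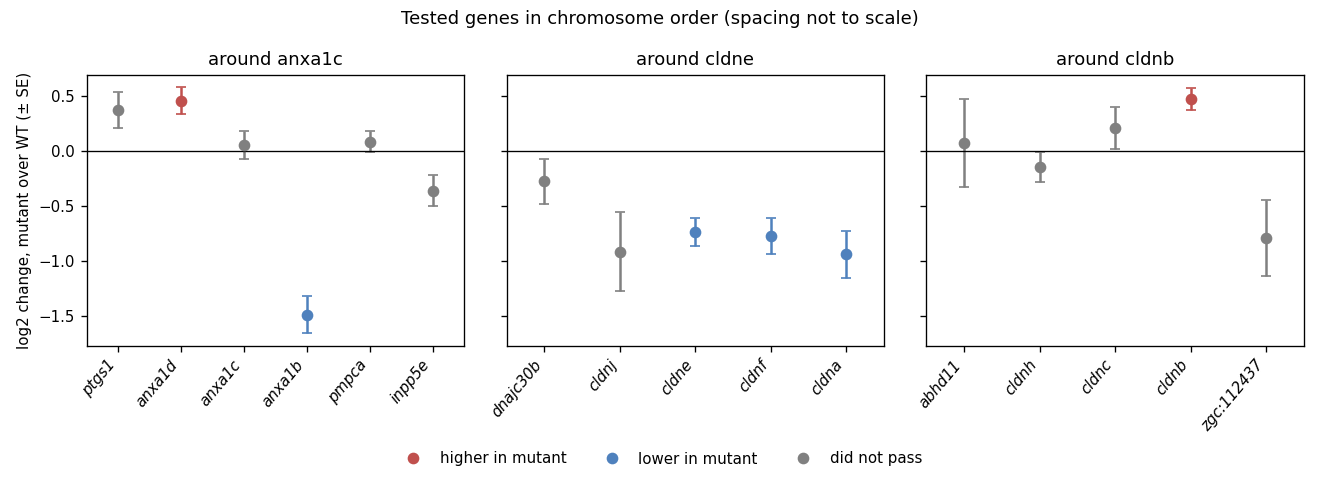
Log2 change of mutant over WT (vertical axis, ± SE) for the tested genes around anxa1c, cldne and cldnb, in chromosome order with spacing not to scale. The claudins from cldnj to cldna all lie at or below -0.74, whereas the adjacent anxa1d, anxa1c and anxa1b lie at 0.45, 0.05 and -1.49.

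Of 12 tested genes in a list of further annexins and their S100 partners, 4 were called higher and 1 lower, with a median log2 change of 0.27. Anxa3a had 22.3, 55.0 and 19.4 FPKM in mutants, against 8.87, 7.04 and 8.92 FPKM in WT, and mutant replicate 2 was by far the highest. Its log2 change was 1.97 (SE 0.28; adjusted p = 0.000439), and 1.45 without mutant replicate 2. The authors' deposited table gives anxa3a a log2 change of 1.28. Anxa4 (0.55), anxa5b (0.53) and anxa11a (0.35) also rose. Their calls depended on single libraries: that on anxa4 was lost without mutant replicate 1 (adjusted p = 0.0602), WT replicate 2 (0.0690) or WT replicate 3 (0.0991), that on anxa5b without WT replicate 1 (0.0587) or WT replicate 2 (0.0517), and that on anxa11a without any 1 library other than mutant replicate 2 (0.0573 to 0.144). S100a11, whose mammalian counterpart binds annexin A1, fell to 85.2 ± 14.8 FPKM in mutants, against 144 ± 8.79 FPKM in WT (SD, n = 3 each), and its log2 change was -0.71 (SE 0.11; adjusted p = 0.000752). S100a10b (0.22, SE 0.12) and anxa2a (0.29, SE 0.10) did not pass. The count for the list was 8 without mutant replicate 2, 2 without WT replicate 2, and 3 without mutant replicate 1, WT replicate 1 or WT replicate 3.

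Among 30 tested further claudins and tight junction genes 2 were called higher and 4 lower, with a median log2 change of 0.04. Cldn1, a claudin required for the skin barrier in mammals, stood out at 85.2, 84.4 and 77.8 FPKM in mutants, against 25.1, 20.3 and 26.3 FPKM in WT. Its libraries formed well separated groups, and the log2 change was 1.84 (SE 0.13; adjusted p = 1.67e-06). In FPKM, the level of cldn1 was above that of cldnb in mutants and below it in WT. Tjp3, a scaffold protein gene of tight junctions, was the other gene called higher (named after its value was seen). Cldn15b (-1.04) and cldn15la (-1.40) fell at mean levels under 3 FPKM. The call on cldn15la was lost without any 1 library other than mutant replicate 2 (adjusted p = 0.107 to 0.178), and that on cldn15b without mutant replicate 1, WT replicate 1, WT replicate 2 or WT replicate 3 (0.0501 to 0.0655). Cldn7b (0.03, SE 0.10) and f11r.1 (0.13, SE 0.10), both abundant, did not pass. The count was 3 without WT replicate 1 and 9 without mutant replicate 2.

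Partners of E-cadherin and desmosome genes were called in 3 of 19 tested, 2 higher and 1 lower, with a median log2 change of -0.01. Ctnnb2, a beta-catenin gene, rose with a log2 change of 0.41 (SE 0.10; adjusted p = 0.0128), and ctnna2, an alpha-catenin of neurons, rose with 0.67. Vclb, a vinculin gene, fell with -0.81. Ctnnb1 (-0.09, SE 0.11) and jupa (0.10, SE 0.10) did not pass. The list had 2 genes higher and 5 lower when mutant replicate 2 was left out. The call on ctnnb2 was lost without mutant replicate 3 (adjusted p = 0.0575), WT replicate 1 (0.0597) or WT replicate 2 (0.0706).

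Genes that attach basal cells to the matrix were called in 1 of 19 tested, with a median log2 change of 0.05. The gene called was col17a1a, a hemidesmosome collagen, at 0.720, 2.23 and 0.970 FPKM in mutants and 2.67, 2.86 and 2.95 FPKM in WT. Mutant replicate 2 was again the mutant library nearest to WT. The log2 change of col17a1a was -1.10 (SE 0.27; adjusted p = 0.0146), a call lost without mutant replicate 3 (0.0801), WT replicate 1 (0.0690) or WT replicate 3 (0.0643). Without mutant replicate 2 its log2 change was -1.61, and the list had 3 genes higher and 2 lower.

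Of 22 tested epidermal regulators, a list of transcription factors and signals that act in skin formation, 2 were called, both higher, with a median log2 change of 0.05. These were grhl2a, a grainyhead factor, at 0.49 (SE 0.14; adjusted p = 0.0351), and klf17, a Krüppel-like factor, at 0.49 (SE 0.11; adjusted p = 0.00864). Tfap2a (0.03, SE 0.11) and id1 (-0.01, SE 0.14) did not pass. The call on grhl2a was lost without mutant replicate 1 (adjusted p = 0.0917), mutant replicate 3 (0.125), WT replicate 1 (0.138) or WT replicate 2 (0.134), and that on klf17 without WT replicate 1 (0.0530) or WT replicate 3 (0.0525). Leaving out mutant replicate 2 gave 2 genes higher and 1 lower.

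Of 7 tested membrane serine proteases and inhibitors 1 was called, with a median log2 change of -0.11 over the list. Spint2, an inhibitor of such proteases at epithelial cell surfaces in mammals, had 31.8, 41.5 and 27.3 FPKM in mutants, against 8.17, 9.25 and 9.29 FPKM in WT. The lowest mutant library was well above the highest WT library, and the log2 change was 1.95 (SE 0.12, adjusted p = 6.17e-07). St14a, a protease of the matriptase type, did not pass (0.22, SE 0.12), nor did spint1b (-0.15, SE 0.17). Without mutant replicate 2 the log2 change of spint2 was 1.85, and the list had 1 gene higher and 1 lower.

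**Figure D5:**
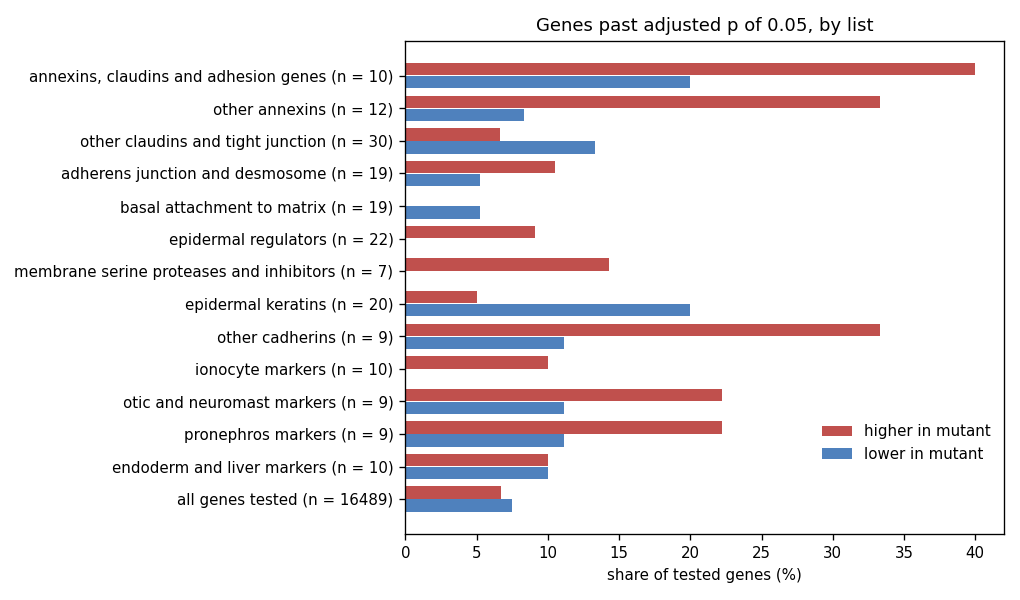
Share of tested genes called higher or lower in mutants (horizontal axis, percent; number tested in brackets) for the 10 genes, for lists of related epithelial genes and for all genes tested. Over all genes 6.71% were higher and 7.48% lower; lists of fewer than 20 genes change by several percentage points with a single gene.

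Splicing events of the authors' deposited tables lay in 1 of the 10 genes, tp63, with 2 skipped-exon records, 1 alternative 5' splice site and 3 alternative 3' splice sites. Coordinates below are as deposited, and GRCz11 is the build named in the submitters' processing notes. The exon at chromosome 6, 28918801 to 28918943 on the plus strand (143 bp), had inclusion levels of 1.00, 0.844 and 1.00 in mutants, against 0.855, 0.806 and 0.945 in WT, in the authors' deposited table. The reads behind them in the authors' deposited table were 166 for and 5 against inclusion in mutants, and 182 for and 14 against in WT. The levels overlapped between the groups, although the authors' deposited table gives an FDR of 2.27e-11. The second record in the authors' deposited table starts 3 bases later and has as few as 9 reads in a library.

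In the next exon of tp63 the start varied. In the authors' deposited table the longer form (28920124 to 28920310) was used at levels of 0.251, 0.353 and 0.434 in mutants, against 0.547, 0.547 and 0.369 in WT, a difference of -14.2 percentage points over a form that starts 36 bases downstream. These levels overlapped too. Of the alternative 3' splice sites only 556 events are held here, and since each of them is lower in mutants, the sign of the tp63 difference is shared by every event held and is not read as a direction. The alternative 5' splice site of the authors' deposited table, 7 bases apart, had 0.00, 0.065 and 0.063 in mutants, against 0.023, 0.096 and 0.071 in WT, and these levels overlapped. The levels of the groups overlapped in all 6 tp63 events. Several of these records overlap in position, so they are not 6 independent events. The 2 skipped-exon records hold equal reads against inclusion, 5 in mutants and 14 in WT. Over all events held with 3 levels in each group, the levels lay apart in 29.0% of the skipped exons. The shares were 29.2% of the alternative 5' splice sites and 27.4% of the alternative 3' splice sites.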

How the data were processed

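RNA of 6 whole-embryo libraries was read as 100 bp paired ends from TruSeq libraries, per the labels' protocols. The deposited table of all genes holds raw read counts as whole numbers, and the authors' FPKM values, which were these counts scaled by exonic length and library total within 0.005. Per the submitters' processing notes, which give neither roles nor order, the build was GRCz11 and the tools included HISAT2 2.0.1, HTSeq 0.6.1, cutadapt, DESeq2 and bcl2fastq 2.17.1.14; use of strand is not given. Counts were tested with edgeR 4.0.16 in R 4.3.3 (TMM, quasi-likelihood test, two-sided, Benjamini-Hochberg), for the 16489 genes that averaged 0.5 FPKM or more. The fit was also run on counts simulated with known changes. That run checks the code and lends no support to the calls reported here. Alternatives used DESeq2 1.42.0, limma 3.58.1, other filters, a replicate block and single libraries left out. The authors also deposited log2 fold changes with p-values, and splicing tables with p-values, an inclusion difference score and read counts; wild type was taken as the sample named first in the labels' comparison. With that order, junction reads moved as gene counts did for 12 of 13 genes checked. Members and lists were chosen with earlier results of these data known. Of 227 listed symbols, 215 were matched, 207 by symbol and 8 by gene identifier. Besides the members, genes were named by the size of a called change (up to 5 per list, mean of at least 1 FPKM) or by level (up to 2 per list). Depth was 13242789 to 16043155 reads a library.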

Additional observations from a re-analysis of the deposited data

How the results depend on the processing

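Over 13 alternatives no called value of the 10 genes turned its direction. Of 130 values, 116 kept their direction and side of the threshold, 10 lost their call (6 of these for anxa1d) and 4 turned their sign, all for anxa1c, which was not called under any of the 13: -0.0052 with limma at either pseudocount, -0.0363 without mutant replicate 1 and -0.0045 without WT replicate 2 (-0.0363 to 0.1184 over the 6 libraries left out). Epcam (adjusted p up to 0.0199) and anxa1b (up to 0.0186) were called under all 13. The number of the 10 genes called was 6, and 4 to 6 with a library left out. With limma on log2(FPKM + 0.1) it was 2, namely epcam and anxa1b, while all genes called were 1431 and genes of the other lists 14. With limma on log2(FPKM + 1) the other lists had 21. A minimum mean of 5 FPKM left 1431 of all genes called, against 2341 as reported, where fewer genes were tested. With a library left out, all genes called ranged from 1369 (without WT replicate 3) to 4828 (without mutant replicate 2), with 1383 without WT replicate 1. Genes called in the other lists, 34 of 171 tested, ranged from 15 (without WT replicate 1) to 63 (without mutant replicate 2), with 19 without WT replicate 2. The causes were not tested. Of the 6 tp63 events, 3 had at least 20 reads in every library. Same-numbered libraries of the groups correlated at 0.16, 0.29 and 0.05 in their deviations. Mutant replicates 1 and 2 correlated best with the same-numbered WT library, and mutant replicate 3, by a small margin, with WT replicate 1 (0.07). These values do not decide whether the numbers pair the samples, and the main fit did not take them to do so. With the replicate block 3388 genes were called in all, 6 of the 10 genes and 47 of the other lists. Of 705 values of the other named genes, 568 kept their direction and side of the threshold, 102 lost their call and 8 gained one. The remaining 27 turned their sign, all for 8 genes that were not called under any of these settings. With limma at pseudocounts of 1 and 0.1 the log2 changes were -0.0233 and -0.0237 for cldn7b, -0.0322 and -0.0352 for lamc1, -0.0277 and -0.0289 for tfap2a, -0.0048 and -0.0049 for atp6v1aa, -0.0459 and -0.05 for foxa2, and -0.0039 for foxa2 at a minimum mean of 5 FPKM. With a library left out they ranged from -0.0209 to 0.0718 for cldn7b, -0.0818 to 0.1371 for lamc1, -0.087 to 0.1244 for id1, -0.0738 to 0.0996 for tfap2a, -0.2008 to 0.0938 for cdh6, -0.0089 to 0.0817 for atp6v1aa, -0.0712 to 0.1614 for foxa2 and -0.2176 to 0.0356 for foxa1.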

Other observations

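Genes of other epithelia that use claudins, Epcam or E-cadherin were measured in the same libraries. Of 10 tested ionocyte markers 1 was called higher, ca15a, a carbonic anhydrase gene, with a log2 change of 0.44 (SE 0.13), and 0 lower; the median was 0.06. The proton pump genes atp6v1ba (0.07, SE 0.09) and atp6v1aa (0.05, SE 0.10) did not pass. The FPKM ranges of ca15a overlapped between the groups, with 14.9 FPKM in mutant replicate 1 and 15.6 FPKM in WT replicate 3. The call on ca15a was lost without mutant replicate 3 (adjusted p = 0.0905), WT replicate 1 (0.173) or WT replicate 2 (0.163). Without mutant replicate 2, 1 ionocyte marker was higher and 4 were lower, and without WT replicate 3, 1 was higher and 1 lower. Ear and neuromast genes went both ways, with 2 higher and 1 lower of 9 tested and a median of 0.19. Otomp, an otolith matrix protein gene, rose with 0.65 (SE 0.12), and stm, another, fell with -0.68 (SE 0.18), a call lost with any single library left out other than mutant replicate 2 or WT replicate 2. The count was 1 without mutant replicate 1, mutant replicate 3, WT replicate 1 or WT replicate 3.

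Of 9 tested pronephros genes 2 were called higher and 1 lower, with a median log2 change of 0.12. Slc20a1a rose with a log2 change of 0.99 (SE 0.23) and hnf1ba with 0.64 (SE 0.17). The call on slc20a1a was lost without WT replicate 1 (adjusted p = 0.06455). That on hnf1ba was lost without mutant replicate 1, WT replicate 1, WT replicate 2 or WT replicate 3 (0.0536 to 0.101). Cdh17, the kidney cadherin, fell with -0.39 (SE 0.12), a call lost without mutant replicate 3 (adjusted p = 0.0887), WT replicate 1 (0.112), WT replicate 2 (0.171) or WT replicate 3 (0.0885). The count was 0 without WT replicate 1, 1 without WT replicate 2 or WT replicate 3 and 5 without mutant replicate 2. Of 10 tested endoderm and liver genes, tfa, the plasma transferrin gene, rose with 0.60 (SE 0.14; call lost without WT replicate 1, adjusted p = 0.0580, or WT replicate 2, 0.0682) and cldn15la, an intestinal claudin, fell; the median was 0.08, and the count was 0 without WT replicate 1 or WT replicate 2, 4 without mutant replicate 2 and 1 without any other library. Of 9 tested further cadherins 3 were called higher and 1 lower, with a median of 0.22. Cdh5, the endothelial cadherin, rose with 0.61 (SE 0.14; call lost without WT replicate 1, adjusted p = 0.0513, or WT replicate 2, 0.0638), and cdh2, the neural cadherin, did not pass (0.11, SE 0.11). The count of cadherins was 1 without WT replicate 1 or WT replicate 2, and 2 without mutant replicate 3.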
